A study of Mus musculus with 23 samples.

Results

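Transcripts of 10 T cell checkpoint and costimulatory genes were followed across whole tumors of 5 syngeneic mouse models. The genes were taken by symbol from a table of 24940 gene symbols. They comprise 5 inhibitory receptors (*Pdcd1*, *Ctla4*, *Lag3*, *Havcr2* and *Tigit*), 4 costimulatory receptors (*Icos*, *Tnfrsf9*, *Tnfrsf4* and *Tnfrsf18*) and 1 transcription regulator (*Tox*), and each was also set against *Cd3e*, a chain of the T cell receptor complex that marks T cells. All 10 were present in the table and all 10 passed the filter on low counts.

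The tumors grew from 500000 cells injected under the skin of the flank of adult female C57BL/6JBomTac mice, and all were engrafted without further treatment. The cell lines came from C57BL/6 mice and were B16-F10 (melanoma, called B16), EO771.LMB (mammary, EO771), LL2 (lung), MC38 (colon) and Pan02 (pancreas). Poly(A) RNA of a tumor fragment at endpoint was sequenced in 3 tumors per model, 15 in all, and FAP+ cancer-associated fibroblasts (CAFs), sorted from the CD45- fraction of such tumors, were sequenced in 2 libraries per model for the 4 models other than B16. Each model is 1 cell line, mice could carry a tumor in both flanks, and the labels do not tie tumors to mice, so p-values measure the spread between tumors, which may in part be technical. Summed counts ran from 10035173 to 21946486 per tumor. As a check of the labels, the melanocyte genes *Pmel*, *Tyrp1* and *Dct* summed to between 19370 and 24330 CPM (read counts scaled to the size of the library) in B16 tumors and to at most 28.5 CPM in any other tumor. Tumors of a model differed in T cell markers: 8 such genes summed to between 16.1 and 72.5 CPM in LL2, 27.1 and 131 CPM in Pan02 and 32.6 and 74.7 CPM in B16, highest in LL2 tumor 3, Pan02 tumor 2 and B16 tumor 2.

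T cells are activated through the T cell receptor together with costimulatory signals, among them those of *Icos* and of the tumor necrosis factor receptor family members *Tnfrsf9* (4-1BB), *Tnfrsf4* (OX40) and *Tnfrsf18* (GITR). Activation also brings inhibitory receptors to the surface, of which *Pdcd1* (PD-1) and *Ctla4* are the targets of the checkpoint antibodies used against tumors. *Tox* is a nuclear factor tied to the exhausted state of T cells under lasting stimulation. Several of these genes are also used outside conventional T cells: regulatory T cells carry *Ctla4*, *Icos*, *Tnfrsf4* and *Tnfrsf18*, macrophages and dendritic cells carry *Havcr2* (TIM-3), and natural killer (NK) cells carry *Tigit* and *Tnfrsf9*.

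The promoters of 3 costimulatory receptors are shown because *Tnfrsf9* gave the largest difference between models of the 10, and *Tnfrsf4* and *Tnfrsf18*, its relatives on the same chromosome, were also called higher in Pan02 tumors. RefSeq start site windows (GRCm38.p6) were found for 7 of the 10 genes in 8 windows, since *Tnfrsf9* has 2 start sites; *Lag3*, *Tox* and *Icos* had none. Each sequence holds the 250 bases before a start site, and capitals mark matches to the letters searched.
*Tnfrsf9*, downstream start, chr4:150927749-150927998, plus strand: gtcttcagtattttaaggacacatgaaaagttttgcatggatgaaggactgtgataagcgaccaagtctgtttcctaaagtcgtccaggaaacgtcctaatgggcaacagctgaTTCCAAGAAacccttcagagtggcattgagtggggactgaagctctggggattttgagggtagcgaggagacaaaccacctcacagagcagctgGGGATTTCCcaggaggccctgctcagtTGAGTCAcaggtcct
*Tnfrsf9*, upstream start, chr4:150919905-150920154, plus strand: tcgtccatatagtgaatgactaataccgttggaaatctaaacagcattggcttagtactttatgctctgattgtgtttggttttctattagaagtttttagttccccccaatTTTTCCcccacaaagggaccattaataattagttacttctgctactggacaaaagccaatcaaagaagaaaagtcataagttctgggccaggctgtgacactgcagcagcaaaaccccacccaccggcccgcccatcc
*Tnfrsf4*, chr4:156013445-156013694, plus strand: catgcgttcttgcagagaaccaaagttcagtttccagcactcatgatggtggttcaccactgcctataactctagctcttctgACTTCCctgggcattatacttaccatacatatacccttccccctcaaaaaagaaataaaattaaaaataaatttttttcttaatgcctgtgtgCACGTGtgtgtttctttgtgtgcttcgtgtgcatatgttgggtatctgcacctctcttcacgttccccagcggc
*Tnfrsf18*, chr4:156026072-156026321, plus strand: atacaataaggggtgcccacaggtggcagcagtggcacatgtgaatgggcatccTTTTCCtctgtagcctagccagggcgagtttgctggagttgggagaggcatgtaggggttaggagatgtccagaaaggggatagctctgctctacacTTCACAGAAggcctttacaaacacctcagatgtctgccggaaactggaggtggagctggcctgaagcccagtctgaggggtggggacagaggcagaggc

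Letters were searched on both strands, N standing for any base. Of the 8 windows, 1 held GGNNTTTCC (a form bound by NF-kappaB factors), against 4.93% of all 32851 windows of this length, and that match began at position -42 from the downstream start of *Tnfrsf9*. The same window held TGANTCA (AP-1), beginning at position -15 from the start, and the window of *Havcr2* held it from position -200, which makes 2 of 8 windows against 6.75% of all windows. Among the other letters searched, GGAAAA (NFAT core) was in 4 of the 8 windows against 20.4% of all, TTCNNNGAA (STAT) in 2 against 7.02%, ACTTCC (ETS) in 2 against 19.7%, CACGTG (E-box) in 1 against 6.02% and TATAAA in 0 against 12.4%. A match describes letters and is not a site. The 3 deposited *Tnfrsf9* transcripts share most exons, and reads in shared exons counted for each of them, so the counts do not separate its start sites.

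In mm10, the build of the count table, *Pdcd1* (chr1:94038305-94052553, minus strand), *Ctla4* (chr1:60909025-60915832, plus strand) and *Icos* (chr1:60977914-61000321, plus strand) lie on chromosome 1, the last 2 as neighbours. *Tnfrsf4* (chr4:156013695-156016589, plus strand) and *Tnfrsf18* (chr4:156026322-156028894, plus strand) are neighbours on chromosome 4, which also holds *Tnfrsf9* (chr4:150920155-150946102, plus strand) and *Tox* (chr4:6687386-6990723, minus strand). *Lag3* is at chr6:124904359-124911705 (minus strand), *Havcr2* at chr11:46454931-46481254 (plus strand) and *Tigit* at chr16:43648861-43664184 (minus strand). Counts cover the exons of each transcript, and in GENCODE only *Tnfrsf18*, *Tox* and *Cd3e* share exon bases with another gene, in each case an antisense one.

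Levels between genes were compared per transcript length, as RPKM (CPM per kilobase of transcript). Over the 15 tumors the median was highest for *Tnfrsf9* at 25.8 RPKM, followed by *Tigit* at 7.28, *Lag3* at 4.98, *Tnfrsf18* at 4.92 and *Havcr2* at 4.65 RPKM. *Cd3e* itself had a median of 4.13 RPKM. Below it came *Tnfrsf4* at 4.03, *Pdcd1* at 3.09, *Ctla4* at 1.58, *Icos* at 1.06 and *Tox* at 0.368 RPKM. *Tnfrsf9* was thus the most abundant and *Tox* the least abundant of the 10 per length. The span from the lowest to the highest tumor was 5.23-fold for *Havcr2*, 18.4-fold for *Tnfrsf9* and 24.3-fold for *Ctla4*, in CPM.

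**Figure D1:**
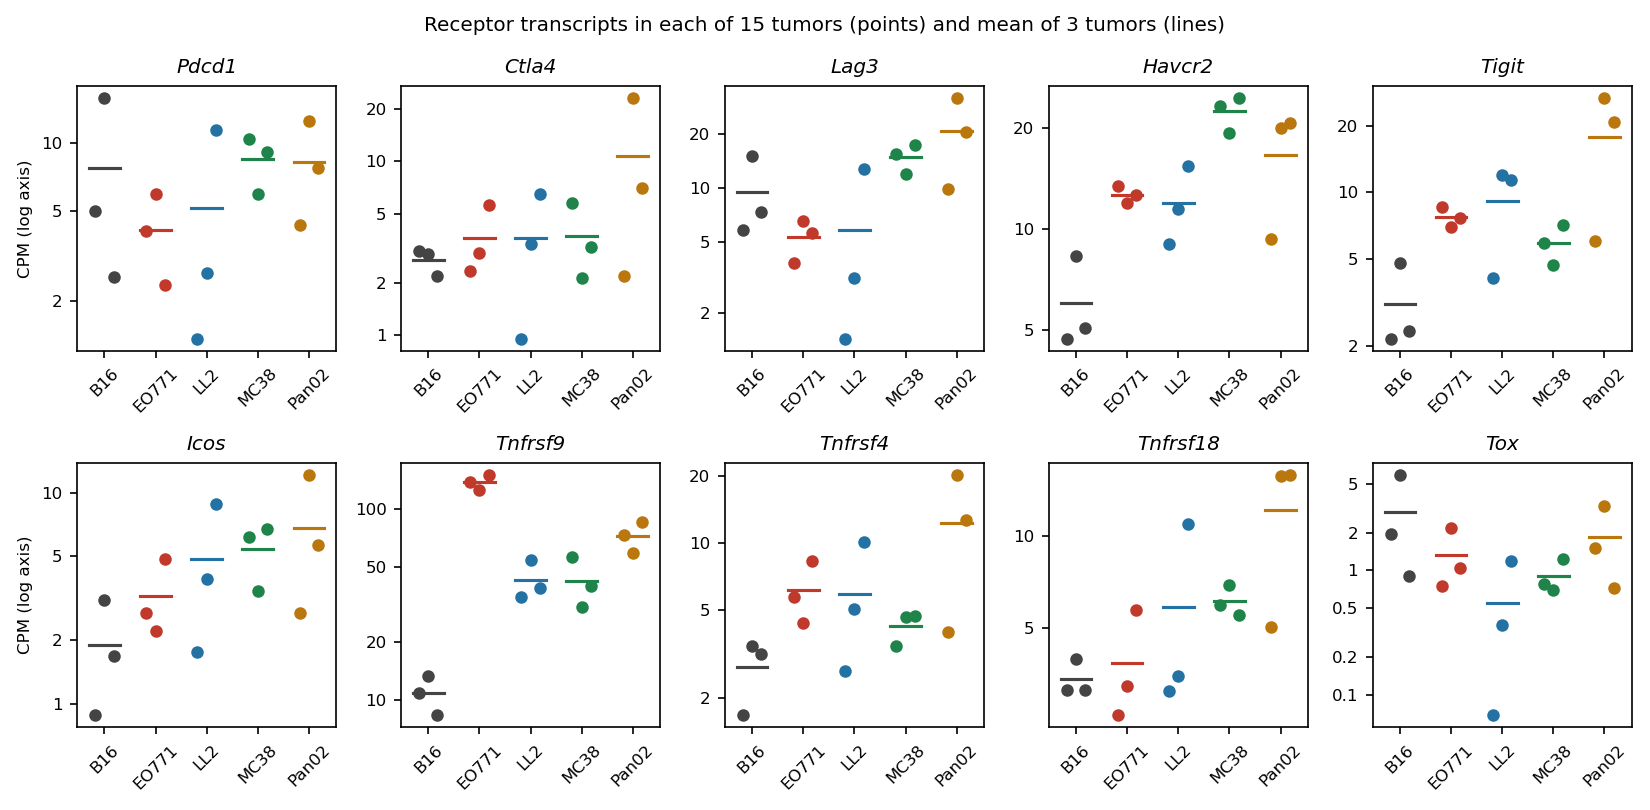
Level of each of the 10 genes in CPM (log axis, a separate range per panel) in the 3 tumors of each model (points), with the model's mean (line). Tnfrsf9 lies between 126 and 152 CPM in EO771 tumors and between 8.28 and 13.3 CPM in B16 tumors, and the Pan02 points of most other receptors spread widely.

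The first comparison asked which of the 10 genes differed among the 5 models. Levels differed for 6 genes: *Tnfrsf9*, *Havcr2*, *Tigit*, *Tnfrsf18*, *Tnfrsf4* and *Lag3* (edgeR quasi-likelihood F test, adjusted p between 2.8e-07 and 0.035). Among all 15722 genes tested, 91.1% differed by the same test, and 6 of 10 is below that share. *Ctla4* and *Tox* (adjusted p = 0.093 each), *Icos* (adjusted p = 0.12) and *Pdcd1* (adjusted p = 0.58) did not pass. Without Pan02 tumor 2, or without Pan02 tumor 3, 3 genes passed in place of 6, namely *Tnfrsf9*, *Havcr2* and *Tigit*. In RNA of whole tumors, fewer cells of a type and less RNA per cell cannot be told apart.

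Among the inhibitory receptors, *Havcr2*, which binds phosphatidylserine and galectin-9, had the smallest adjusted p over the 5 models (edgeR F test, adjusted p = 0.00084). Its levels were 4.71, 8.33 and 5.09 CPM in the 3 B16 tumors, 13.5, 12.0 and 12.6 CPM in EO771, and 9.04, 11.5 and 15.5 CPM in LL2. In MC38 they were 23.4, 19.4 and 24.7 CPM and in Pan02 9.33, 20.0 and 20.8 CPM. All 3 B16 tumors lay below all other tumors, and the highest tumor was of MC38. Against the mean of the other 4 models, *Havcr2* was lower in B16 by a log2 fold change of -1.35 ± 0.26 (SE, edgeR, adjusted p = 0.00052) and higher in MC38 by 1.01 ± 0.22 (adjusted p = 0.0017).

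*Tigit*, which competes with the activating receptor *Cd226* for *Pvr* on other cells, was at 2.16, 4.79 and 2.34 CPM in B16, at 8.58, 6.96 and 7.67 CPM in EO771 and at 4.08, 11.9 and 11.3 CPM in LL2. It was at 5.87, 4.67 and 7.12 CPM in MC38 and at 6.01, 26.8 and 21.0 CPM in Pan02. The top 2 tumors were of Pan02, whereas Pan02 tumor 1 lay among the MC38 tumors, and B16 tumor 2 reached the lower tumors of LL2 and MC38. The log2 fold change was -1.57 ± 0.45 in B16 (adjusted p = 0.0074) and 1.57 ± 0.35 in Pan02 (adjusted p = 0.0017).

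*Lag3*, which binds MHC class II, was at 5.80, 15.2 and 7.33 CPM in B16, 3.81, 6.54 and 5.58 CPM in EO771 and 1.43, 3.13 and 12.8 CPM in LL2. MC38 tumors had 15.5, 12.0 and 17.4 CPM and Pan02 tumors 9.92, 31.9 and 20.5 CPM. Every model overlapped with others in *Lag3*. It was higher in Pan02 by 1.35 ± 0.45 on the log2 scale (adjusted p = 0.019), but without Pan02 tumor 2 the value was 0.90 (adjusted p = 0.17). LL2 was low in 2 of its 3 tumors: its log2 fold change was -0.94 (adjusted p = 0.17) with all tumors and -2.27 (adjusted p = 0.0041) without LL2 tumor 3. The test over the 5 models lost *Lag3* (adjusted p from 0.053 to 0.098) when any 1 of 7 tumors was left out, which were the 3 EO771 tumors, LL2 tumor 2, MC38 tumor 1 and Pan02 tumors 2 and 3.

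*Ctla4*, which binds *Cd80* and *Cd86* in competition with *Cd28*, was at 3.05, 2.92 and 2.20 CPM in B16, 2.33, 2.97 and 5.58 CPM in EO771 and 0.951, 3.34 and 6.51 CPM in LL2. In MC38 it was at 5.78, 2.13 and 3.22 CPM, and in Pan02 at 2.20, 23.1 and 7.02 CPM. A single tumor, Pan02 tumor 2, lay far above the rest. The higher level of Pan02 (log2 fold change 1.66 ± 0.53, adjusted p = 0.015) rested on it, since without it the value was 0.44 (adjusted p = 0.53).

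*Pdcd1* differed little between models against its spread within them. It was at 5.01, 15.9 and 2.54 CPM in B16, 4.08, 5.94 and 2.35 CPM in EO771 and 1.36, 2.66 and 11.5 CPM in LL2. MC38 tumors had 10.5, 5.96 and 9.17 CPM and Pan02 tumors 4.35, 12.6 and 7.74 CPM. The highest tumor of B16 was 6.23 times its lowest, and no contrast of a model against the other 4 passed (log2 fold changes from -0.82 to 0.49, adjusted p from 0.29 to 0.63).

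Of the costimulatory receptors, *Tnfrsf9* separated the models most. Its levels were 10.8, 13.3 and 8.28 CPM in B16 and 139, 126 and 152 CPM in EO771. In LL2 they were 34.7, 54.3 and 38.4 CPM, in MC38 56.2, 30.5 and 39.6 CPM, and in Pan02 73.2, 59.2 and 85.5 CPM. All B16 tumors lay below and all EO771 tumors above every tumor of the other models, and Pan02 came second with no overlap with LL2 or MC38. Against the mean of the other 4 models, *Tnfrsf9* was lower in B16 by -2.60 ± 0.23 (adjusted p = 3.6e-07) and higher in EO771 by 2.02 ± 0.17 (adjusted p = 4.1e-07) and in Pan02 by 0.84 ± 0.18 (adjusted p = 0.00097).

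*Tnfrsf4*, a receptor that prolongs the survival of activated T cells, was at 1.67, 3.42 and 3.14 CPM in B16, 5.72, 4.33 and 8.28 CPM in EO771 and 2.65, 5.01 and 10.0 CPM in LL2. It was at 3.42, 4.62 and 4.66 CPM in MC38 and 3.96, 20.2 and 12.7 CPM in Pan02. The 2 highest tumors were of Pan02 and the lowest was of B16. The log2 fold change was 1.43 ± 0.39 in Pan02 (adjusted p = 0.0059), which became 0.86 (adjusted p = 0.11) without Pan02 tumor 2. In B16 it was -1.24 ± 0.47 (adjusted p = 0.034), and the call ended without any 1 of the 3 B16 tumors (adjusted p from 0.059 to 0.14) or without EO771 tumor 3 (adjusted p = 0.05).

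*Tnfrsf18*, the neighbour of *Tnfrsf4* on chromosome 4, was at 3.14, 3.98 and 3.14 CPM in B16, 2.59, 3.23 and 5.75 CPM in EO771 and 3.13, 3.49 and 10.96 CPM in LL2. MC38 tumors had 5.97, 6.95 and 5.55 CPM and Pan02 tumors 5.03, 15.7 and 15.9 CPM. As with *Tnfrsf4* and *Tigit*, Pan02 tumors 2 and 3 were at the top and Pan02 tumor 1 was not. It was higher in Pan02 by 1.39 ± 0.36 on the log2 scale (adjusted p = 0.0046). The antisense gene *Gm16008* overlaps 25.3% of the exon bases of *Tnfrsf18*, and since the libraries were unstranded, reads of the pair cannot be told apart.

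*Icos*, which binds *Icosl* and lies beside *Ctla4* on chromosome 1, was at 0.884, 3.11 and 1.70 CPM in B16, 2.70, 2.21 and 4.88 CPM in EO771 and 1.77, 3.91 and 8.89 CPM in LL2. It was at 6.21, 3.43 and 6.71 CPM in MC38 and 2.69, 12.2 and 5.64 CPM in Pan02. B16 tumors were in the lower part of the range but overlapped with EO771, LL2 and Pan02. Their log2 fold change of -1.35 ± 0.56 was at the threshold (adjusted p = 0.049), and the call ended in 11 of 15 fits that left out 1 tumor, with values from -1.04 to -1.40 in those 11. It held without B16 tumor 2, LL2 tumor 1, MC38 tumor 2 or Pan02 tumor 1.

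*Tox* was the least abundant of the 10 genes. Its levels were 1.97, 5.91 and 0.898 CPM in B16, 0.741, 2.21 and 1.05 CPM in EO771 and 0.0680, 0.365 and 1.19 CPM in LL2, the first LL2 value being 1 count, under the 3 counts taken as the floor. MC38 tumors had 0.770, 0.695 and 1.23 CPM and Pan02 tumors 1.51, 3.31 and 0.720 CPM. LL2 tumors 1 and 2 were the lowest 2 of the 15, and the highest was B16 tumor 2. The higher level in B16 (log2 fold change 1.49 ± 0.58, adjusted p = 0.036) rested on B16 tumor 2, without which it was 0.42 (adjusted p = 0.63), and the call was also lost, with little change in the value, without EO771 tumor 1 or 3, LL2 tumor 2 or MC38 tumor 1 or 2 (adjusted p from 0.053 to 0.057). *Gm11802*, an antisense gene, overlaps 6.56% of the exon bases of *Tox*.

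Seen by model, B16 had 6 of 10 genes called against the mean of the other 4, 5 lower (*Havcr2*, *Tigit*, *Icos*, *Tnfrsf9* and *Tnfrsf4*) and 1 higher (*Tox*), where 63.5% of all genes were called, 31.6% lower and 31.9% higher. Pan02 had 6 of 10 called, all higher (*Ctla4*, *Lag3*, *Tigit*, *Tnfrsf9*, *Tnfrsf4* and *Tnfrsf18*), where 60.6% of all genes were called and 32.5% were higher. EO771 had 1 of 10 called, *Tnfrsf9*, against 54.2% of all genes, and MC38 1 of 10, *Havcr2*, against 51.4%. LL2 had 0 of 10 called by edgeR, and 0 at an unadjusted p under 0.05, against 42.2% of all genes; DESeq2 gave a total of 16 calls over the 5 models where edgeR gave 14. The median log2 fold change of the 10 genes was -1.07 in B16 and 1.14 in Pan02, beside -0.03 and 0.05 over all genes. It was -0.16 in EO771, -0.12 in LL2 and 0.01 in MC38.

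**Figure D2:**
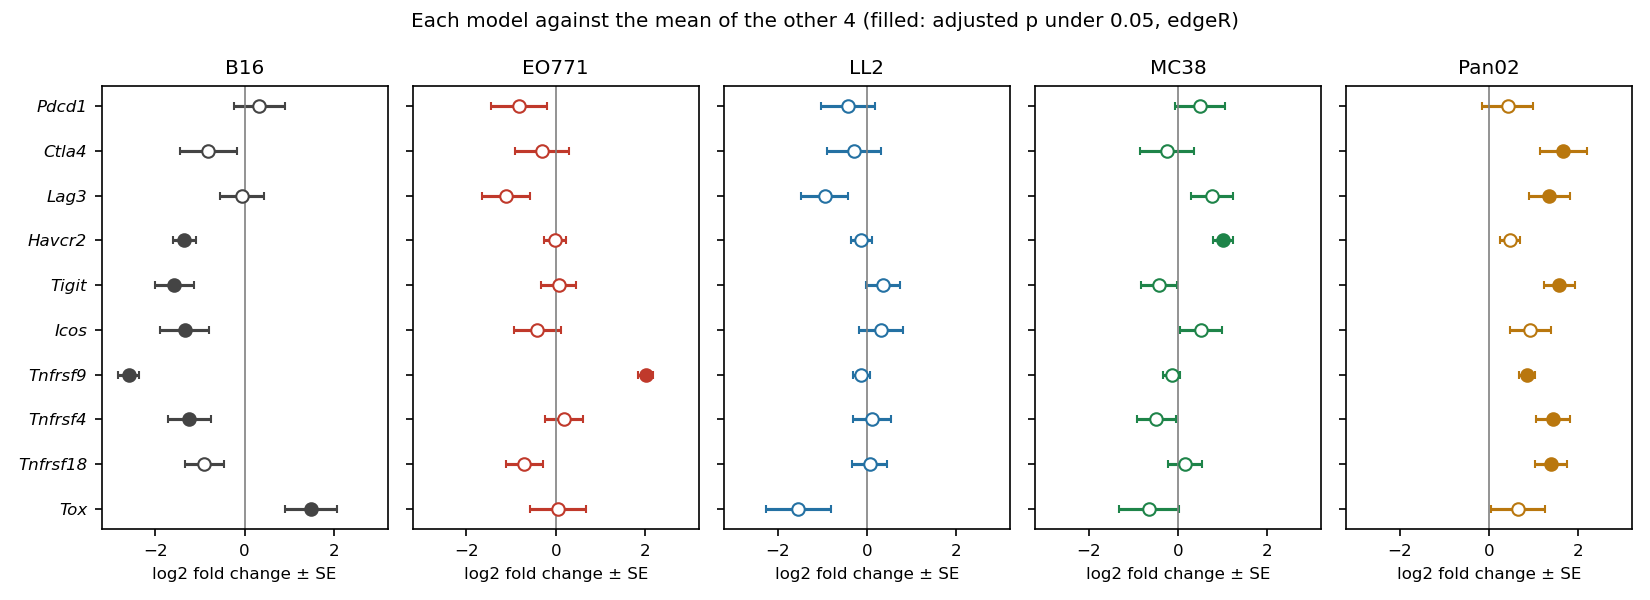
Log2 fold change (x axis, ± SE) of each gene in 1 model against the mean of the other 4, from edgeR on 3 tumors per model. Filled points have an adjusted p under 0.05: 5 of the 6 filled B16 points lie left of 0, all 6 filled Pan02 points lie right of it, and LL2 has no filled point.

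When the models were ordered by mean level for each gene, 4 of 40 neighbouring pairs differed by the edgeR contrast, where 27.1% of such neighbouring pairs differed over all genes. For *Havcr2* the step was from B16 to LL2 (0.98, log2). For *Tnfrsf9* the steps were from Pan02 to EO771 (0.94), from LL2 to Pan02 (0.77) and from B16 to MC38 (1.97), and MC38 and LL2 did not differ beyond their spread. No neighbours differed for *Pdcd1*, *Ctla4*, *Lag3*, *Tigit*, *Icos*, *Tnfrsf4*, *Tnfrsf18* or *Tox*. The *Havcr2* step lost its call without B16 tumor 1, B16 tumor 3 or LL2 tumor 3 (B16 minus LL2 from -0.86 to -0.76, adjusted p from 0.058 to 0.066), and the *Tnfrsf9* step from LL2 to Pan02 without LL2 tumor 1, LL2 tumor 3 or Pan02 tumor 3 (LL2 minus Pan02 from -0.70 to -0.66, adjusted p from 0.051 to 0.063). Without Pan02 tumor 1, 9 neighbouring pairs differed.

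*Cd3e* was at 4.22, 13.9 and 5.89 CPM in B16, 2.01, 3.06 and 4.36 CPM in EO771 and 1.36, 1.51 and 10.4 CPM in LL2. It was at 7.61, 6.85 and 8.35 CPM in MC38 and 3.22, 18.8 and 8.76 CPM in Pan02. Its spread within B16, LL2 and Pan02 covered most of the range of all tumors, and the 5 models did not differ in it past the threshold (edgeR, adjusted p = 0.24). Its antisense neighbour *Gm48719* overlaps 9.23% of its exon bases.

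The next comparison asked how far each gene followed *Cd3e* from tumor to tumor within models. In an edgeR fit with 1 term per model and log2 *Cd3e* as a covariate, 5 of 10 genes rose with *Cd3e* and 0 fell, where 3.21% of all genes changed and 2.95% rose. The slope, the log2 change per doubling of *Cd3e*, was 0.81 ± 0.09 for *Lag3* (adjusted p = 0.00066), 0.76 ± 0.12 for *Icos* (adjusted p = 0.0054) and 0.60 ± 0.10 for *Tnfrsf18* (adjusted p = 0.0066). It was 0.63 ± 0.12 for *Tnfrsf4* (adjusted p = 0.014) and 0.81 ± 0.17 for *Pdcd1* (adjusted p = 0.022). *Lag3* thus had the narrowest error among the 5. The median slope was 0.69 over the 10 genes and 0.00 over all genes.

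*Ctla4* (0.81 ± 0.20) and *Havcr2* (0.32 ± 0.08) missed the threshold at adjusted p = 0.051 each, and *Tox* (0.74 ± 0.23, adjusted p = 0.12) and *Tigit* (0.46 ± 0.16, adjusted p = 0.16) did not pass. For *Tnfrsf9* the slope was -0.02 ± 0.10 (adjusted p = 0.96), which leaves it the one gene of the 10 without a positive estimate. These slopes lean on few tumors. Without LL2 tumor 3 only *Lag3* passed, without Pan02 tumor 2 there were 3 genes, and without LL2 tumor 2 there were 8. The call for *Pdcd1* also ended when B16 tumor 2 or LL2 tumor 1 was left out (adjusted p = 0.075 and 0.06), and that for *Tnfrsf4* without Pan02 tumor 1 (adjusted p = 0.069). With the mean log2 level of *Cd2*, *Cd5*, *Cd6* and *Lck* in place of *Cd3e*, 8 genes rose, all but *Tnfrsf9* and *Tox*.

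**Figure D3:**
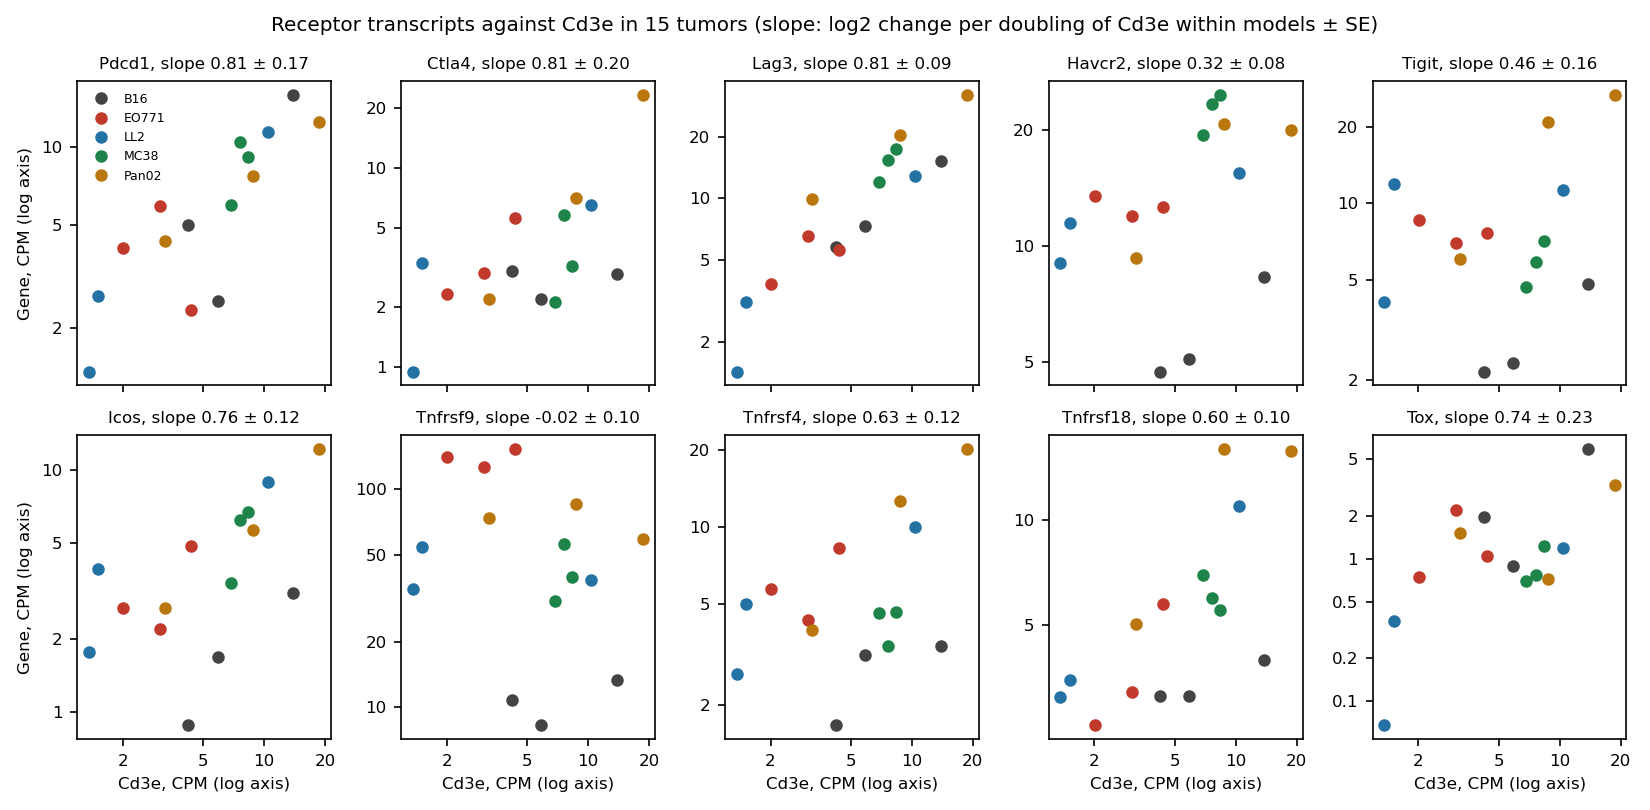
Level of each gene against Cd3e in the 15 tumors, both in CPM on log axes, coloured by model; the title of each panel gives the within-model slope ± SE. Lag3 rises with Cd3e across the models, with Pan02 tumors toward the upper side, whereas Tnfrsf9 forms separate groups by model with a slope of -0.02.

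Divided by *Cd3e* within each tumor, *Lag3* ran from 0.751 to 2.20 RPKM per RPKM of *Cd3e*, a 2.93-fold span where its level spanned 22.3-fold. The span fell from 11.7-fold to 4.69-fold for *Pdcd1*. For *Tnfrsf9* the ratio spanned 72.1-fold, from 0.650 in B16 tumor 2 to 46.9 in EO771 tumor 1, against 18.4-fold for its level.

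At a given level of *Cd3e*, 7 of 10 genes differed among the models (edgeR, 90.5% of all genes): *Tnfrsf9* (adjusted p = 1.2e-06), *Havcr2* (5e-05), *Tnfrsf4* (0.00048), *Tigit* (0.0011), *Tnfrsf18* (0.0013), *Icos* (0.0016) and *Lag3* (0.0066). *Pdcd1* (adjusted p = 0.93), *Ctla4* (0.099) and *Tox* (0.068) did not. For *Pdcd1* the log2 fold changes of the models at a given *Cd3e* lay between -0.23 and 0.26, with standard errors up to 0.42. B16 was lower than the mean of the other models in 6 of 10 genes (65.2% of all genes called, 32.7% lower), by -1.77 ± 0.30 for *Icos* (adjusted p = 0.00023), -1.87 ± 0.38 for *Tigit* (adjusted p = 0.00081) and -1.13 ± 0.23 for *Tnfrsf18* (adjusted p = 0.00092), as well as in *Havcr2*, *Tnfrsf4* and *Tnfrsf9*. *Icos* thus moved from a borderline call to a clear one once *Cd3e* was in the fit.

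Pan02 was higher in 5 of 10 genes at a given *Cd3e* (56.9% of all genes called, 29.7% higher): *Tigit* by 1.05 ± 0.34, *Tnfrsf9* by 0.86 ± 0.19, *Tnfrsf18* by 0.85 ± 0.21, *Tnfrsf4* by 0.74 ± 0.27 and *Lag3* by 0.72 ± 0.18 (adjusted p from 0.0022 to 0.032). The *Tnfrsf4* call ended without B16 tumor 2, LL2 tumor 3, Pan02 tumor 2 or Pan02 tumor 3 (0.55 to 0.66). The *Tigit* call ended when LL2 tumor 3 or Pan02 tumor 3 was left out (0.67 and 0.83, adjusted p = 0.14 and 0.093), and the *Lag3* call without Pan02 tumor 1 (0.59, adjusted p = 0.063). *Ctla4*, which was called in Pan02 before, was at 0.61 ± 0.46 (adjusted p = 0.27). EO771 was higher in *Tnfrsf9* (2.00 ± 0.20) and *Tnfrsf4* (0.88 ± 0.28), 2 of 10 where 50.2% of all genes were called. LL2 was higher in *Icos* alone (1.00 ± 0.28, adjusted p = 0.014; 39.6% of all genes called). MC38 was higher in *Havcr2* (0.82 ± 0.16) and lower in *Tnfrsf4* (-0.80 ± 0.27), with 52.2% of all genes called. The *Icos* call in LL2 ended without LL2 tumor 2 (0.68, adjusted p = 0.057), the *Tnfrsf4* call in EO771 without EO771 tumor 1 or 3 (adjusted p = 0.067 and 0.09), and that in MC38 without MC38 tumor 1, MC38 tumor 3 or Pan02 tumor 2 (adjusted p from 0.057 to 0.11).

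Markers of the cell types that could carry these receptors moved with some of the results. Of 8 T cell markers 0 differed among the 5 models (edgeR, 91.1% of all genes). In Pan02 3 of the 8 were higher (32.5% of all genes), among them *Cd2* by 1.49 and *Cd5* by 1.48 on the log2 scale (adjusted p = 0.018 and 0.015). In a wider list of 14 T cell genes 1 differed among the models, *Cd4* (adjusted p = 0.0015). *Cd4* was lower in B16 by -1.44 (adjusted p = 0.013) and higher in Pan02 by 1.81 (adjusted p = 0.00063). All 6 macrophage markers differed (91.1% of all genes), 6 of 6 were lower in B16 (31.6% of all genes) and 5 of 6 were higher in Pan02 (32.5%). Their summed level was 390 to 691 CPM in B16, 1556 to 1730 in EO771, 1236 to 2350 in LL2, 1056 to 1832 in MC38 and 1189 to 5270 CPM in Pan02. *C1qa*, a complement component made by macrophages, averaged 189 ± 67.6 CPM (SD, n = 3) in B16 and 1233 ± 884 CPM in Pan02. The part of these cells in the levels of *Havcr2*, *Tigit*, *Tnfrsf9* and the other receptors was not tested.

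*Ptprc*, the pan-leukocyte marker CD45, was lower in B16 by -1.20 (adjusted p = 0.013) and did not pass in the other 4 models. At a given *Cd3e* it was lower in B16 (-1.46, adjusted p = 1.5e-06) and higher in EO771 (0.71, adjusted p = 0.00077), LL2 (0.56, adjusted p = 0.0057) and MC38 (0.43, adjusted p = 0.012), and its part in the receptor levels at a given *Cd3e* was not tested. NK cell markers differed in 0 of 4 tested over the 5 models (91.1% of all genes). In MC38 3 of them were higher (51.4% of all genes called), and *Klrk1* averaged 9.86 ± 0.94 CPM there. The fifth NK marker did not pass the filter. Of 5 genes of regulatory T cells, 4 differed over the models (91.1% of all genes) and 4 were higher in Pan02 (32.5% of all genes). *Foxp3*, the factor that defines these cells, averaged 22.1 ± 8.89 CPM in Pan02 (log2 fold change 0.80, adjusted p = 0.0031) and between 10.2 and 14.9 CPM in the other models. The slope of *Foxp3* on *Cd3e* within models was 0.26 ± 0.08 (edgeR, adjusted p = 0.089). Of the 5 genes of regulatory T cells, 2 rose with *Cd3e* (2.95% of all genes). *Ikzf4*, another factor of these cells, was higher in Pan02 by 1.85 (adjusted p = 5.1e-05). Of 5 dendritic cell markers, 4 differed (91.1% of all genes), and they did not share a direction in LL2, where *Clec9a* was higher by 2.89 and *Zbtb46* lower by -1.08 on the log2 scale (adjusted p = 6.2e-05 and 0.002). The part of these cells was likewise not tested.

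The ligands of the receptors differed among models in 13 of 13 genes tested of 14 listed (91.1% of all genes). *Tnfsf9*, the ligand of *Tnfrsf9*, averaged 2.76 ± 0.74 CPM in EO771, the model with most *Tnfrsf9*, and 14.3 to 38.4 CPM in the other models. It was lower in EO771 by -3.19 on the log2 scale (edgeR, adjusted p = 4.6e-08). It was higher in MC38 by 1.37, in Pan02 by 1.59 and in B16 by 0.44 (adjusted p = 0.024). B16, the model with least *Tnfrsf9*, averaged 20.3 CPM, below MC38 (34.1) and Pan02 (38.4 CPM), and was set against a mean that includes EO771. Pan02 thus had the highest mean of the ligand and came second in *Tnfrsf9*. *Tnfsf18*, the ligand of *Tnfrsf18*, averaged 5.52 ± 3.12 CPM in Pan02, whereas no other model had a mean above 0.347 CPM (log2 fold change 4.53, adjusted p = 3.7e-07). In LL2 this ligand averaged 0.101 CPM, where 1 CPM was 14.7 to 19.2 counts, so the fold change sets Pan02 against few counts and its size is uncertain. Thus Pan02 had the highest mean of both the receptor and its ligand in this pair. The same held for *Tnfrsf4* and *Tnfsf4*, the latter at 1.00 CPM in Pan02 and 0.153 to 0.873 CPM elsewhere. *Icosl* averaged 43.5 ± 4.17 CPM in EO771 against 6.37 to 13.3 CPM elsewhere. Of the 13 ligands, 1 rose with *Cd3e* within models (2.95% of all genes).

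Among 13 tested receptors of the same families outside the 10, 7 differed among the models (91.1% of all genes) and 7 rose with *Cd3e* (2.95% of all genes). *Vsir* (VISTA), a checkpoint protein of myeloid cells and T cells, was lower in B16 by -2.03 and higher in Pan02 by 1.24 (log2, adjusted p = 5.6e-05 and 0.00054), both in the direction of *Tigit*. *Tnfrsf25* (death receptor 3) averaged 4.03 ± 0.67 CPM in Pan02 and at most 1.06 CPM elsewhere. Of 10 tested regulators of T cell state, 9 differed among the models, which is near the 91.1% of all genes. *Eomes*, a T-box factor of cytotoxic cells, averaged 23.2 ± 5.31 CPM in MC38 and at most 5.21 CPM elsewhere. *Nr4a3*, an immediate early factor induced by receptor signalling, averaged 317 ± 81.0 CPM in B16 and at most 14.3 CPM elsewhere. *Cd3e* averaged 7.99 CPM in B16 and 7.60 CPM in MC38, on a scale that does not correct for length. Neither *Nr4a3* (slope 0.506 ± 0.155, edgeR, adjusted p = 0.11) nor *Eomes* (0.562 ± 0.147, adjusted p = 0.061) passed for a change with *Cd3e* within models. Which cells carried these 2 transcripts was not tested. Of the 10 regulators 1 rose with *Cd3e* (2.95% of all genes).

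Over the 15 tumors, the genes whose log2 levels were most like those of a receptor were found among 14308 genes with a mean of at least 1 CPM. *Pdcd1* was most like *Ikzf3*, *Zap70* and *Cxcr6* (Pearson r from 0.905 to 0.912), and *Lag3* like *H2-DMa*, *Gbp8* and *Cd3g* (0.940 to 0.948). *Tox* was most like *Themis* (0.815), a gene of T cell development. *Tigit* was most like *Rasgrp4* (0.942), *Havcr2* like *Tbc1d9*, *Il2rg* and *Traf1* (0.949 to 0.962) and *Tnfrsf9* like *Gcnt2*, *Sat1* and *Slc39a13* (0.969 to 0.974). *Ctla4* was most like *P2ry10* (0.943), *Icos* like *Ikzf1* (0.920), *Tnfrsf4* like *Rtn1* (0.934) and *Tnfrsf18* like *Il27ra* (0.942). *Zap70*, *Cd3g* and *Themis* belong to T cell receptor signalling, whereas *Rasgrp4* is a signalling gene of mast cells and other myeloid cells. These correlations share libraries and the differences between 5 models, and they describe the 15 tumors only.

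The sorted CAFs served as a further readout, in the authors' RPKM, a scale normalized apart from that of the tumors. *Cd3e* was at most 0.248 RPKM in the 8 CAF libraries, and *Pdcd1* at most 0.422 RPKM. *Tnfrsf9* was at 31.2 and 32.9 RPKM in EO771 CAFs, 5.43 and 8.11 in LL2, 8.04 and 6.64 in MC38 and 8.50 and 6.40 RPKM in Pan02 CAFs. EO771 was thus the highest model for *Tnfrsf9* in CAFs as in tumors, where its mean was 66.1 RPKM against 20.0 to 34.5 RPKM for LL2, MC38 and Pan02. On the log2(RPKM + 1) scale EO771 CAFs were higher than the mean of the other 3 models by 2.03 ± 0.17 (limma, adjusted p = 0.00012, 52.5% of all genes called).

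*Tigit* was at 3.30 and 3.39 RPKM in EO771 CAFs, 1.02 and 1.28 in LL2, 0.119 and 0.282 in MC38 and 2.42 and 3.18 RPKM in Pan02 CAFs. MC38 CAFs were lower by -1.45 ± 0.13 and EO771 CAFs higher by 1.03 ± 0.13 (limma, adjusted p = 0.00011 and 0.00072), where 59.9% of all genes were called in MC38. *Tnfrsf4* was highest in MC38 CAFs, at 2.38 and 2.12 RPKM, and lowest in Pan02 CAFs, at 0.216 and 0.220 RPKM. *Tnfrsf18* was also highest in MC38 CAFs, at 1.89 and 3.22 RPKM. It was lowest in EO771 CAFs, at 0.294 and 0.334 RPKM, with 0.376 and 0.613 in Pan02 and 1.02 and 1.44 RPKM in LL2. For both of these receptors Pan02, the highest model in whole tumors, was low in CAFs. For *Tnfrsf18* the Pan02 log2 fold change was -0.54 ± 0.17 (limma, adjusted p = 0.03), and it ran from -0.66 to -0.43 when 1 library was left out.

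Of the 10 genes, 5 passed the filter of 1 RPKM in at least 2 CAF libraries, and all 5 (*Tnfrsf9*, *Tigit*, *Tnfrsf4*, *Tnfrsf18* and *Lag3*) differed among the 4 models by limma, where 80.4% of all genes did. The call for *Lag3* (adjusted p = 0.031) ended without either EO771 or either LL2 library (adjusted p from 0.069 to 0.086) and without the filter (adjusted p = 0.08); Pan02 CAFs had 5.33 and 1.91 RPKM of *Lag3*. *Havcr2* was at most 1.49 RPKM. Macrophage markers summed to 111 and 140 RPKM in the EO771 CAF libraries and to between 6.002 and 18.3 RPKM in the others, and *Ptprc* was at 0.947 and 0.902 RPKM in EO771 CAFs and at most 0.092 RPKM elsewhere, although the sort took CD45- cells. The part of such cells in the EO771 levels of *Tnfrsf9* and *Tigit* was not tested. Fibroblast markers (*Fap*, *Col1a1* and *Pdgfra*) summed to 3811 and 3399 RPKM in EO771 CAFs and to 2309 and 1644 in LL2. They summed to 2802 and 485.7 RPKM in MC38 CAFs and to 1557 and 824.6 in Pan02. *Fap* alone was at 6.5 and 7.2 RPKM in EO771 and 9.2 and 9.9 in LL2. It was at 11.4 and 4.3 RPKM in MC38 and 3.3 and 1.9 in Pan02. The part of fibroblast content in the receptor levels was not tested. T cell markers summed to between 2.01 and 2.61 RPKM in all 8 libraries. Of this sum *Cd247* alone made 0.617 to 1.92 RPKM. In tumors *Cd247* did not pass for a change with *Cd3e* within models (slope 0.08 ± 0.08, edgeR, adjusted p = 0.69).

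**Figure D4:**
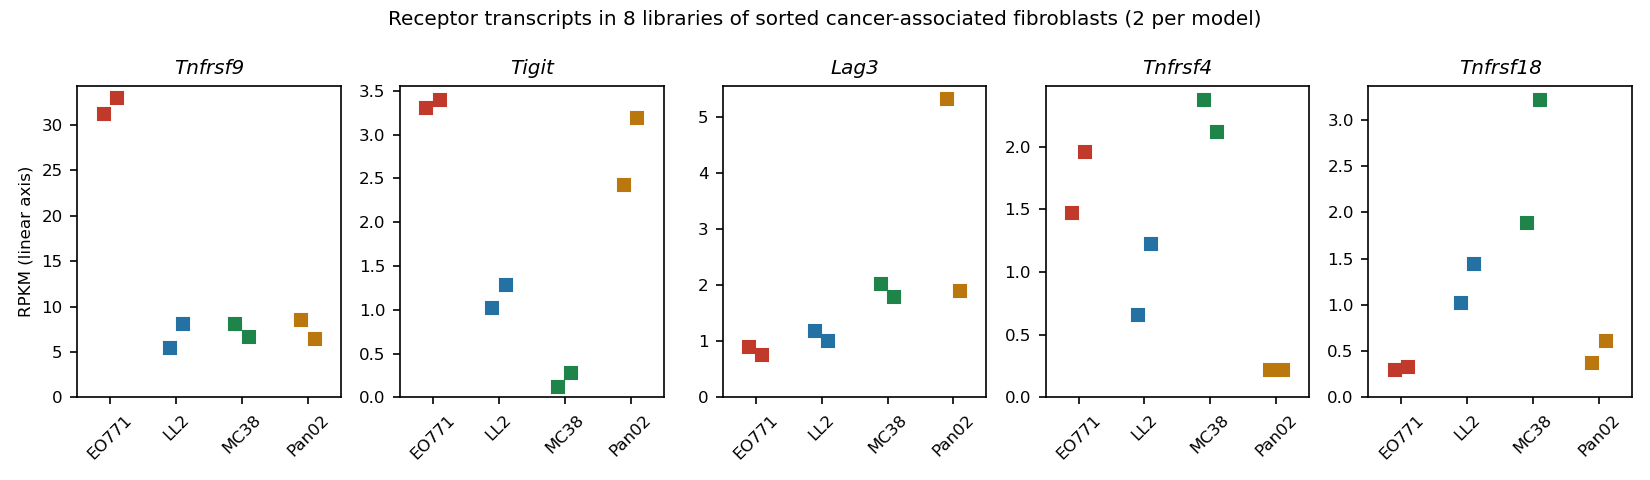
Level of the 5 receptors that passed the filter in the 8 CAF libraries, in RPKM on linear axes from 0, with 2 libraries (squares) per model. Tnfrsf9 stands at 31.2 and 32.9 RPKM in EO771 and at most 8.50 RPKM in the other models, and Tigit is lowest in MC38.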

How the data were processed

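The tumor table deposited by the authors holds expected counts for RefSeq transcripts, in multiples of 0.5 and not normalized, from STAR 2.5.0c alignments to mm10 and HOMER counting over exons, per the labels. For CAFs the deposited values were RPKM, which the file does not name as such. The 10 genes, the gene lists and the tests were chosen with earlier results of these data known. Where a symbol had several transcripts the one with most reads on average stood for it in tumors, and 5 columns of another model were not used. In CAFs the one with the highest mean RPKM stood for it, which for *Tnfrsf18*, *Ctla4* and *Ptprc* was another transcript than in tumors. After rounding up and filterByExpr, TMM factors were computed and the quasi-likelihood test of edgeR 4.0.16 was run (15722 genes, Benjamini-Hochberg adjustment, threshold 0.05, no fold threshold), with 1 term per model and, for the *Cd3e* fit, its centred log2 CPM. CPM are TMM-scaled. CAFs were tested with limma 3.58.1 on log2(RPKM + 1), which was decided after the data were seen; the pseudocount shrinks changes of low genes. Named genes were the 10 members, *Cd3e* and *Ptprc*, the leading 3 tested genes per list by the test over models or a defining marker, and up to 3 of those most alike by Pearson r of log2(CPM + 1), of which 1 is not reported here. Sequences are RefSeq's. Fits were tested on simulated data. R 4.3.3, Python 3.11.15 and DESeq2 1.42.0 were also used. Depth limits mainly *Tox* and *Icos*, at 1 and 9 counts in their lowest tumors; such floors cover counting error only.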

Additional observations from a re-analysis of the deposited data

How the results depend on the processing

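Of the alternatives planned for tumors, total-count scaling, no filter, the longest transcript and rounding down left every count of genes in the report as it was. The counts over single contrasts (14) and over models at a given *Cd3e* (7) stayed within 1.5 times of their value in all settings. Genes that differ among the 5 models numbered 6 and ranged from 3 to 8 when 1 tumor was left out. Genes that changed with *Cd3e* numbered 5 and ranged from 1 to 8, and neighbouring pairs numbered 4 and ranged from 3 to 9. Genes that differ among CAFs numbered 5, and 6 without the filter on low values, where *Pdcd1* and *Havcr2* were gained and *Lag3* was lost. With *Cd2*, *Cd5*, *Cd6* and *Lck* as the reference 8 genes changed with T cell level, and with a replicate block 1 gene (*Lag3*) changed with *Cd3e*. The cause was not tested. Same-numbered tumors did not deviate together over the 5 models (r from -0.175 to 0.246, 5 of 30 pairs over 0.1, and 6 of 15 tumors closest to their own number), so the block was not a pairing, although the 3 pairs of B16 and Pan02 had r from 0.120 to 0.205; it also took the *Tox* call in B16 to adjusted p = 0.059. CAF columns carry no replicate numbers. Single values turned direction for *Pdcd1* between B16 and LL2 without B16 tumor 2 (-0.47, the values without 1 tumor running up to 1.94, and 0.60 with all tumors) and for *Lag3* in B16 at a given *Cd2*, *Cd5*, *Cd6* and *Lck* level (0.045, where it was -0.46 at a given *Cd3e*). Total-count scaling moved the median of all genes by 0.14 in MC38 and -0.12 in Pan02 (log2). Of the single values, 608 of the fits with another setting kept direction and call, 28 gained a call and 13 lost one, against 1321, 60 and 84 when a tumor or library was left out. Sequencing depth limits what can be said of *Tox*, with 1 to 94.5 counts per tumor, and 3 tumors or 2 CAF libraries per model limit the rest.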

Other observations

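How the 10 genes moved with one another is described here over the 15 tumors, after the mean of each model was taken off the log2 levels, so that only differences between tumors of a model remain. *Lag3* and *Cd3e* were the closest (Pearson r = 0.954), followed by *Havcr2* and *Tigit* (0.928) and *Icos* and *Cd3e* (0.909). *Tnfrsf9* moved with none of *Tnfrsf4* (-0.08), *Tnfrsf18* (-0.04) and *Cd3e* (-0.04). For *Tigit* and *Cd3e* r was 0.724 within models and 0.322 over all 15 tumors, and for *Havcr2* and *Cd3e* it was 0.825 within models and 0.376 over all tumors. *Pdcd1* and *Tox* gave 0.824 within models. All these values share libraries and 3 tumors per model, and they are descriptions only.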
